A study of Homo sapiens with 4 samples.

Results

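The genes that make, take up, store and export cholesterol were followed in SK-N-BE(2)C neuroblastoma cells treated with all-trans retinoic acid (ATRA). The set holds 30 of the 55765 gene symbols in the deposited count table, chosen by name, and all 30 had enough reads to be tested. It comprises 7 enzymes that turn acetyl-CoA into isoprenoid units, 11 enzymes that turn those units into sterols, 5 genes of the SREBP sterol sensor, 4 genes of sterol transport and storage, and 3 genes of efflux. The cells received 10 µM ATRA or its solvent, ethanol, for 144 h, with 2 libraries per group. SK-N-BE(2)C is an established line, a clonal subline of SK-N-BE(2) with amplified MYCN, and both groups share that background. No genetic change separates the groups, and medium, serum and harvest were the same in the labels.

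Cells make cholesterol from acetyl-CoA through the mevalonate pathway. When sterols run low in the endoplasmic reticulum, the escort protein SCAP carries the SREBP transcription factors to the Golgi, where they are cleaved and freed to switch on the synthesis enzymes; when sterols are plentiful, INSIG proteins hold the complex back. Surplus cholesterol is esterified by SOAT1 or exported by ABCA1 and ABCG1, whose genes are classical targets of the liver X receptors (LXR), nuclear receptors that bind DNA together with RXR, the same partner that retinoic acid receptors use.

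With ATRA 1 member of the set, ABCA1, was called higher and no other member passed the threshold (3.33%, against 0.698% of all genes tested). Of the 18 synthesis enzymes, 12 had ATRA and ethanol libraries that overlapped. Both ATRA libraries lay above both ethanol libraries for 11.1% of these enzymes and below for 22.2%, against 23.8% and 21.7% of all genes. The promoters of 3 members are shown with a chosen element marked in each. These are the nuclear receptor element of ABCA1, the sterol element of SREBF2, and the CCAAT boxes of HMGCS1. HMGCS1 is a synthesis gene whose libraries are described further on. Sequences are RefSeq windows of build GRCh38.p14, running 5′ to 3′ on the gene's strand from 250 bases before to 50 bases after the start site. The counts were made on hg19. ABCA1 lies at chr9:104928106-104928405 on the minus strand, SREBF2 at chr22:41832855-41833154 on the plus strand and HMGCS1 at chr5:43313363-43313662 on the minus strand. Capitals mark the element named for each gene.
ABCA1 promoter: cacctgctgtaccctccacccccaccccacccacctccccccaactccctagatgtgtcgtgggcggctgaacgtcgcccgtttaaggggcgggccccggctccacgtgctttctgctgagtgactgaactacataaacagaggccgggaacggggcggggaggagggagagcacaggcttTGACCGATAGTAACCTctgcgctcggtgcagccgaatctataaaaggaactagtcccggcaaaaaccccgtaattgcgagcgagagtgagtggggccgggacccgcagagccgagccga
SREBF2 promoter: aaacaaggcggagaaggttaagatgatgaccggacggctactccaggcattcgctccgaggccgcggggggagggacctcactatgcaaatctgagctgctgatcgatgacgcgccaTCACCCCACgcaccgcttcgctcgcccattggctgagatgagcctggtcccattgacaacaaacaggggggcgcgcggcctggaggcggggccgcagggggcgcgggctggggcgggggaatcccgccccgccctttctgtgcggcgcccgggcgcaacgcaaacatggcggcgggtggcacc
HMGCS1 promoter: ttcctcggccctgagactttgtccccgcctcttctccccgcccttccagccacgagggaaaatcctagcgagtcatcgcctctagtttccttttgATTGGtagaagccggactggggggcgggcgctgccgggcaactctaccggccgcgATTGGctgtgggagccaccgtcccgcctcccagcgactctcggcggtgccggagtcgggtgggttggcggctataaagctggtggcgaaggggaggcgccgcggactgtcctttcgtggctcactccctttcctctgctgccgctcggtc

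In ABCA1 the capitals mark a direct repeat spaced by 4 bases, from -69 to -54 relative to the start site, which reads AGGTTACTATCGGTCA on the opposite strand. It is known as the element to which LXR and RXR bind, and in macrophages it has also been described as a site for retinoic acid receptors with RXR. It matches AGGTNANNNNNGGTCA, a form loosened with the ABCA1 element in mind, which was found on either strand in 33 of 35116 promoters (0.094%) and in no other of the 26 members with a promoter in the table. The strict repeats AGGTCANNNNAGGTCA and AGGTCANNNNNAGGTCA were in 7 (0.0199%) and 2 (0.0057%) of all promoters and in 0 of the 26. In SREBF2 the capitals mark TCACCCCAC at -133 to -125, a match to TCACNCCAC, the only form of the sterol element searched. It was in 396 promoters (1.13%) and in 1 of the 26 members, SREBF2 itself. Looser forms of the sterol element were not searched, so the other members may hold one. The NF-Y box CCAAT, a known companion of SREBP sites, was in 18 of the 26 against 34.6% of all promoters, and the SP1 box GGGCGG in 25 of the 26 against 45% of all promoters. Members were searched by the first entry of each gene, while the shares of all promoters count every entry. The promoters were not matched for expression. In HMGCS1 the CCAAT boxes lie on the opposite strand, at -155 to -151 and at -100 to -96. ACAT2, FDFT1, SQLE and ABCG1 had no promoter entry.

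The 4 libraries held 15518828 and 16498355 counts with ATRA and 12850462 and 19883465 with ethanol. Here 1 stands for the library without a number in its title and 2 for the one so numbered. Whether both libraries of a treatment were grown apart is not stated, and the p-values therefore reflect library-to-library spread that may be technical. Retinoid targets followed the labels: the retinoic acid hydroxylase gene CYP26A1 had 140 and 267 CPM (counts scaled to a common library size) with ATRA and no read in either ethanol library, and RARB had 34.4 and 66.9 CPM with ATRA and 1.54 and 1.78 CPM with ethanol. Genes of the sympathoadrenal lineage such as HAND2 (334 to 442 CPM) and GATA2 (238 to 364 CPM) were present in all 4 libraries. The share of reads from mitochondrial rRNA was 2.49% and 0.13% in ATRA 1 and 2, and 5.96% and 0.0291% in ethanol 1 and 2, higher without a number than with it in either treatment.

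Which cholesterol genes differ between ATRA and ethanol? In the edgeR quasi-likelihood test over 18900 genes, 1 of 30 members was called higher and 0 lower at an adjusted p under 0.05 (3.33%), against 0.698% of all genes tested (0.545% higher and 0.153% lower). At an unadjusted p under 0.05 stood 4 members (13.3%) and 15.9% of all genes. Both ATRA libraries lay above both ethanol libraries for 6 members (20.0%) and below them for 6 (20.0%), close to the 23.8% and 21.7% of all genes, and the other 18 overlapped. The median log2 fold change was -0.14 over the members and 0.01 over all genes, and the median absolute value was 0.26 over the members and 0.42 over all genes. A log2 fold change is ATRA over ethanol throughout, with its standard error (SE).

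**Figure D1:**
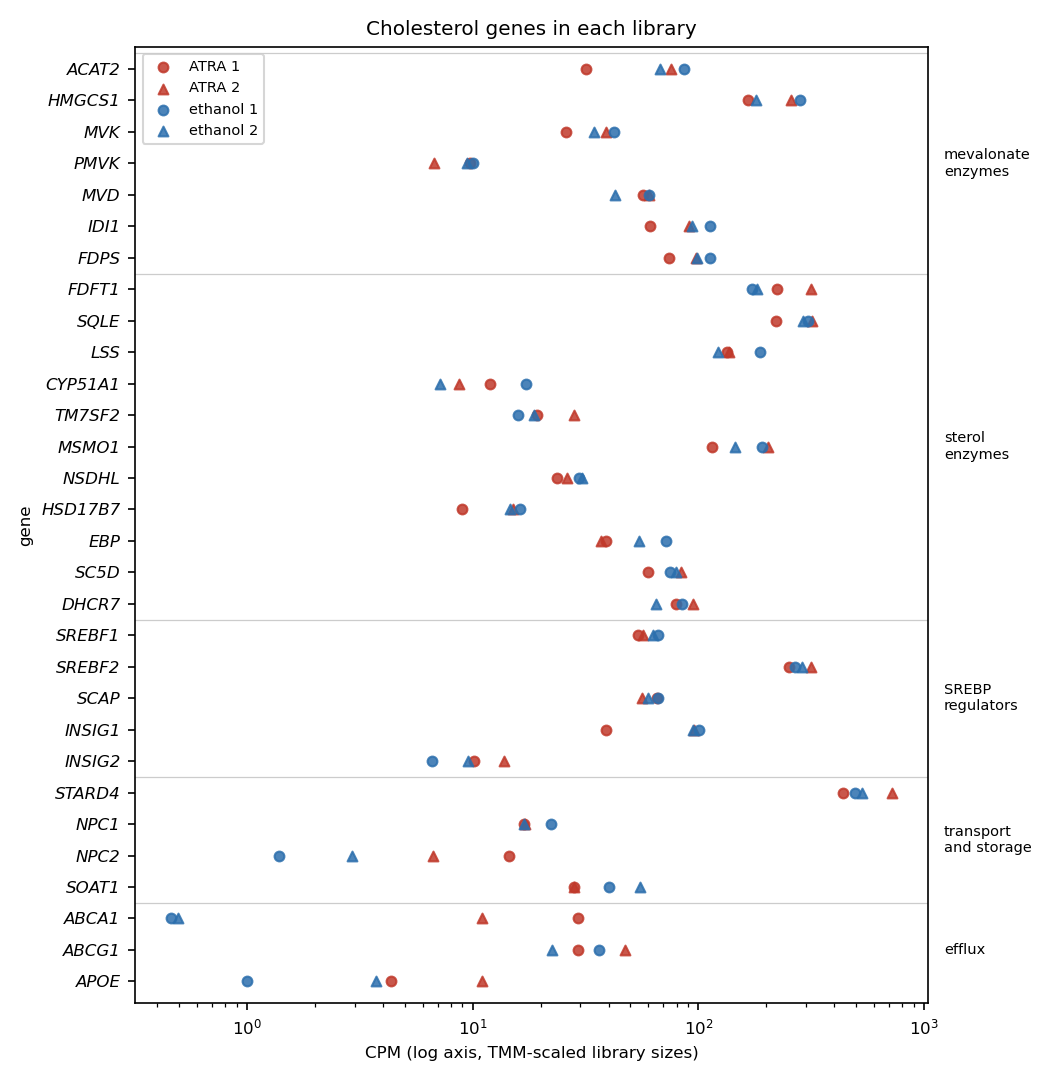
CPM of each of the 30 genes in each library (x, log axis), ATRA in red and ethanol in blue, circles for libraries without a number in their title and triangles for those numbered 2. ABCA1 stands apart, at 29.3 and 11 CPM with ATRA and 0.462 and 0.496 CPM with ethanol, while the red and blue points of 18 genes interleave.

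The efflux genes held the largest difference. ABCA1, the transporter that loads cholesterol and phospholipid onto lipid-poor apolipoprotein A-I, had 29.3 and 11 CPM in ATRA 1 and 2 and 0.462 and 0.496 CPM in ethanol 1 and 2. These rest on 432 and 184 reads with ATRA and 6 and 10 reads with ethanol, so both ATRA libraries were far above both ethanol libraries. ABCA1 rose 41.2-fold, a log2 fold change of 5.37 ± 0.66 (SE; edgeR quasi-likelihood adjusted p 0.041), with a 95% interval of 3.76 to 6.98. It ranked 114 of the 18900 genes by log2 fold change, and the differences between libraries of the same number were 5.65 and 4.17. The ATRA libraries differed from each other by more than the ethanol libraries did. Without ATRA replicate 1 the log2 fold change was 4.49 (edgeR quasi-likelihood adjusted p 1.63e-05), and limma-voom did not call the gene (adjusted p 0.0932, log2 5.11); over 11 alternatives the adjusted p ran from 1.39e-16 to 0.0932.

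ABCG1, which passes cholesterol to larger lipoprotein particles, was not called. It had 29.3 and 47.4 CPM with ATRA and 36.4 and 22.4 CPM with ethanol, so the groups overlapped. Its log2 fold change was 0.39 ± 0.37 (SE) with an interval of -0.52 to 1.29, so a doubling was not excluded. The differences within number 1 and number 2 were -0.31 and 1.08. The gene of apolipoprotein E, APOE, a lipoprotein component that glia supply to neurons in brain, had 4.34 and 11 CPM with ATRA and 1.00 and 3.72 CPM with ethanol. Both ATRA libraries were above both ethanol libraries, with ATRA 2 and ethanol 2 each well above the other library of its treatment, and the log2 fold change of 1.68 ± 0.78 (SE) was not called (edgeR quasi-likelihood adjusted p 0.371). Leaving out a library moved it widely: it was 0.84 without ATRA replicate 2 and 1.00 without ethanol replicate 1 (edgeR quasi-likelihood adjusted p 0.82 and 0.65), 2.18 without ATRA replicate 1 (adjusted p 0.0596), and 2.95 and called without ethanol replicate 2 (adjusted p 0.0105).

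Per kilobase of exon, ABCA1 reached 1.79 CPM with ATRA and 0.0425 CPM with ethanol, and ABCG1 8.43 CPM with ATRA and 6.46 CPM with ethanol. On this scale ABCA1 mRNA therefore stayed below ABCG1 mRNA in both groups. Exon lengths are those of GENCODE 29, and these levels are a description. High levels were those of STARD4 (104 CPM per kilobase with ATRA and 92.6 with ethanol) and SQLE (90.9 with ATRA and 101 with ethanol), and low ones those of CYP51A1 (3.08 with ATRA and 3.65 with ethanol) and NPC1 (3.28 with ATRA and 3.80 with ethanol).

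Among the genes of sterol transport and storage, NPC2 was the nearest to a call. Its protein binds cholesterol inside lysosomes and hands it to the membrane protein NPC1 for export. NPC2 had 14.5 and 6.70 CPM with ATRA and 1.39 and 2.92 CPM with ethanol, with both ATRA libraries above both ethanol libraries. Its log2 fold change was 2.28 ± 0.61 (SE), 3.28 within number 1 and 1.16 within number 2, and it missed the threshold (edgeR quasi-likelihood adjusted p 0.152). DESeq2 called it (adjusted p 0.00915), as did the edgeR quasi-likelihood test without ATRA replicate 2 (adjusted p 0.00349) and without ethanol replicate 2 (adjusted p 0.00506), at log2 fold changes of 2.72 and 2.94. It was not called without ATRA replicate 1 (log2 1.60, edgeR quasi-likelihood adjusted p 0.407), without ethanol replicate 1 (log2 1.81, adjusted p 0.177) or by limma-voom (adjusted p 0.179). NPC1 had 16.8 and 17 CPM with ATRA and 22.3 and 16.8 CPM with ethanol, at a log2 fold change of -0.21 ± 0.30 (SE). The partners of the lysosomal export step thus gave different values, although their difference was not tested.

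SOAT1, the enzyme that esterifies cholesterol for storage, had 28 and 28.2 CPM with ATRA and 40.0 and 55.2 CPM with ethanol. The groups did not overlap, and the log2 fold change of -0.76 ± 0.27 (SE) was not called (edgeR quasi-likelihood adjusted p 0.253). STARD4, a soluble carrier that moves sterol between membranes, had 435 and 720 CPM with ATRA and 495 and 531 CPM with ethanol, so the ethanol libraries lay between the ATRA libraries.

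ABCA1 and NPC2 were both higher in ATRA 1 than in ATRA 2, and so was the summed level of 9 markers of other cell types, at 87.9 and 39.8 CPM in ATRA 1 and 2 and 8.55 and 9.51 CPM in ethanol 1 and 2. Of these markers 7 were tested and 0 called, 4 had both ATRA libraries above both ethanol libraries, among them KRT8, COL1A1 and ACTA2, and 1 below (GFAP). ACTA2, the actin of smooth muscle, gave most of the sum with 51.2 and 11.6 CPM with ATRA and 1.85 and 3.47 CPM with ethanol. The macrophage marker CD68 had no read in any library and the leukocyte marker PTPRC at most 1.35 CPM. The part of these markers in the ABCA1 and NPC2 values was not tested. In bulk libraries a change in the number of cells of a type cannot be told apart from a change in RNA per cell.

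**Figure D2:**
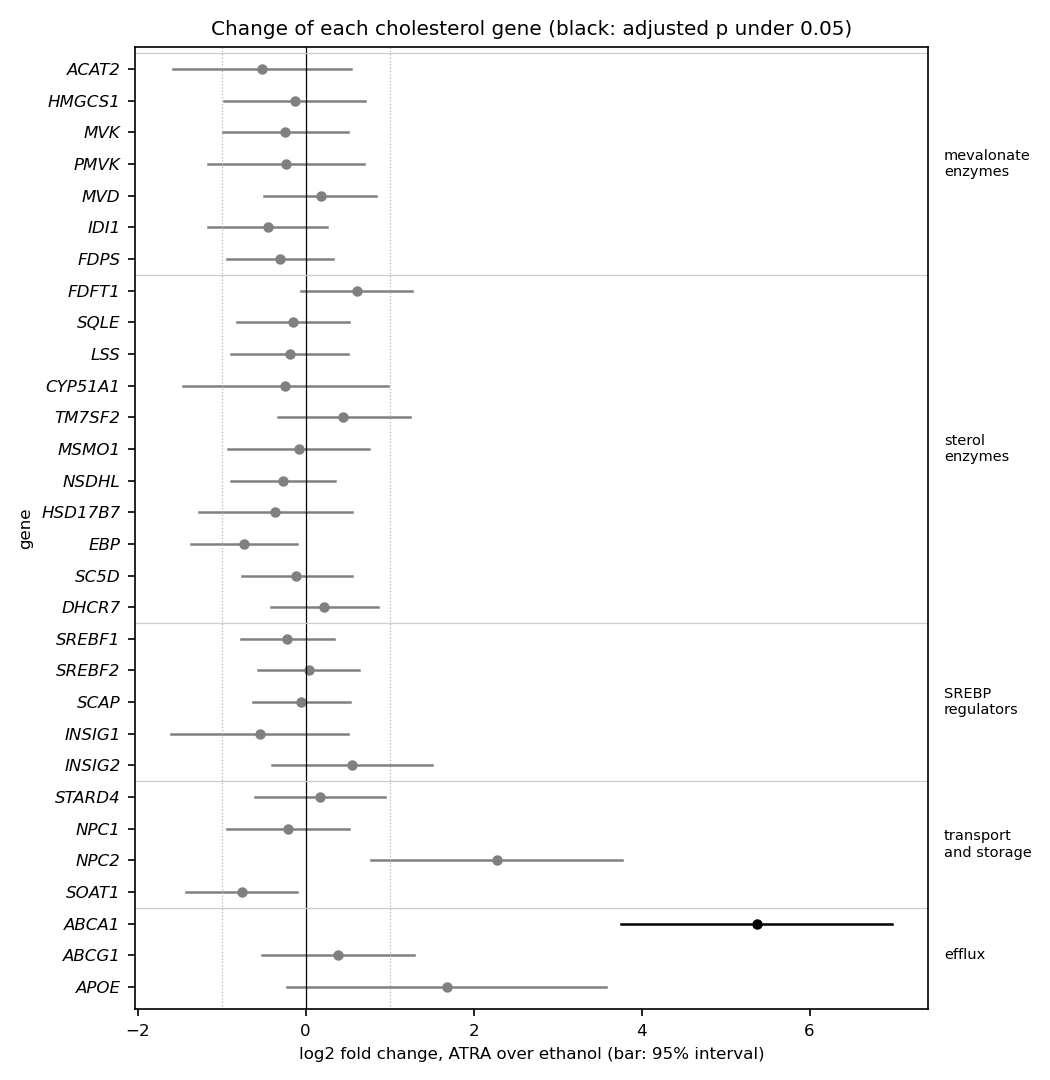
Log2 fold change, ATRA over ethanol, of each gene (point) with its 95% interval (bar); black marks an adjusted p under 0.05 and dotted lines mark a doubling and a halving. ABCA1 alone is black, at 5.37, and 15 of the 30 intervals lie between the dotted lines.

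The mevalonate enzymes take acetyl-CoA to farnesyl diphosphate. None of the 7 was called, and 6 had a negative log2 fold change, against 49.2% of all genes. Over the 7, the median was -0.25 and the range was -0.52 to 0.18. IDI1, which interconverts the isoprenoid building blocks, had 61.0 and 90.9 CPM with ATRA and 113 and 94.1 CPM with ethanol. Its groups did not overlap, though ATRA 2 and ethanol 2 nearly met, and its log2 fold change was -0.45 ± 0.29 (SE; edgeR quasi-likelihood adjusted p 0.549). FDPS, farnesyl diphosphate synthase, was likewise below ethanol in both ATRA libraries at -0.30 ± 0.26. The others overlapped: HMGCS1, which makes HMG-CoA, at -0.13 ± 0.35, ACAT2, the thiolase of the opening step, at -0.52 ± 0.43, and the kinases MVK and PMVK at -0.25 ± 0.31 and -0.23 ± 0.38. MVD, mevalonate diphosphate decarboxylase, was at 0.18 ± 0.27. In ACAT2 69.6% of exon bases, in FDPS 28.9% and in HMGCS1 19.9% lie opposite exons of other genes in GENCODE 29, and since the strand setting of the counting is not given, reads of such partners cannot be told apart from theirs.

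The sterol enzymes run from squalene to cholesterol. Again none of 11 was called, and 8 had a negative log2 fold change, against 49.2% of all genes. Over the 11, the median was -0.15 with a range of -0.73 to 0.61. At both ends of that range the groups did not overlap. EBP, the sterol isomerase, had 38.8 and 37.2 CPM with ATRA and 71.8 and 54.3 CPM with ethanol, a log2 fold change of -0.73 ± 0.26 (SE; edgeR quasi-likelihood adjusted p 0.249). FDFT1, squalene synthase, which commits farnesyl diphosphate to sterols, had 222 and 316 CPM with ATRA and 172 and 181 CPM with ethanol, at 0.61 ± 0.27 (SE; edgeR quasi-likelihood adjusted p 0.353). TM7SF2, a sterol reductase, had 19.2 and 28.2 CPM with ATRA and 15.9 and 18.7 CPM with ethanol, at 0.45 ± 0.32 (SE). NSDHL, a sterol dehydrogenase, was below ethanol in both ATRA libraries at -0.27 ± 0.25.

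The other sterol enzymes overlapped between groups. SQLE, squalene epoxidase and a control point of the pathway, was at -0.15 ± 0.27, with 221 and 319 CPM with ATRA and 307 and 290 CPM with ethanol. LSS, lanosterol synthase, was at -0.19 ± 0.29, the demethylase CYP51A1 at -0.24 ± 0.50, the methylsterol oxidase MSMO1 at -0.08 ± 0.34 and the ketosteroid reductase HSD17B7 at -0.36 ± 0.37. The last steps, SC5D and DHCR7, were at -0.11 ± 0.27 and 0.22 ± 0.26. For 10 of the 18 enzymes of both groups the 95% interval excluded a doubling and a halving (55.6%), against 20.6% of all genes. For the other 8, among them ACAT2, IDI1 and HSD17B7, a change of that size was within the interval, so a missed threshold does not show that they were alike. Interval width also depends on read count, and the share over all genes was not matched for it.

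None of the 5 SREBP sensor genes was called, and their median was -0.05. SREBF2, whose product is the main activator of the synthesis enzymes, had 253 and 316 CPM with ATRA and 267 and 288 CPM with ethanol, at 0.04 ± 0.25, and SCAP was at -0.05 ± 0.24. SREBF1, whose product favours fatty acid genes and which is itself an LXR target, was at -0.22 ± 0.23, with 54.1 and 56.7 CPM with ATRA and 66.1 and 62.9 CPM with ethanol. The intervals of these 3 genes all lay within a doubling and a halving. INSIG1, which retains SCAP and is induced by SREBP, had 38.9 and 95.4 CPM with ATRA and 101 and 94.6 CPM with ethanol, at -0.54 ± 0.43 (SE). Its value rests on ATRA 1: the other 3 libraries lay between 94.6 and 101 CPM. INSIG2, a relative that SREBP does not induce, had 10.1 and 13.7 CPM with ATRA and 6.62 and 9.56 CPM with ethanol, with both ATRA libraries above, at 0.55 ± 0.39 (SE; edgeR quasi-likelihood adjusted p 0.591).

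A pattern among the synthesis genes was noticed after their values were seen: for many of them the difference between ATRA and ethanol had opposite signs in the libraries without a number and in those numbered 2. HMGCS1 had 165 and 257 CPM in ATRA 1 and 2 and 281 and 180 CPM in ethanol 1 and 2, so it was lower with ATRA in the first pair and higher in the second, with log2 differences of -0.77 and 0.51. MSMO1 likewise differed in opposite directions, with 115 and 203 CPM with ATRA and 191 and 145 CPM with ethanol (log2 differences of -0.73 and 0.48). ACAT2 had 31.8 and 75.9 CPM with ATRA and 86.6 and 67.8 CPM with ethanol (-1.44 and 0.16).

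Of the 18 synthesis enzymes, 16 were lower with ATRA within number 1 and 5 within number 2, with median log2 differences of -0.51 and 0.16, where all genes had 0.00 and 0.04. Lower within number 1 and higher within number 2 were 11 of the 18 enzymes (61.1%) and 16 of the 30 members (53.3%), against 14.8% of all genes and 7 of the 67 other pathway genes tested (10.4%). Among those other genes the list of fatty acid synthesis genes driven by SREBP-1 had it in 4 of 10 (40%), with ATRA 1 lowest of the 4 libraries in 6 of 10 (60%). Both groups contributed: ATRA 1 was below ATRA 2 and ethanol 1 above ethanol 2 for 15 of the 30 members (50%), against 14% of all genes. By that measure the fatty acid list had 1 of 10 (10%), below the share of all genes. ATRA 1 was the lowest of the 4 libraries for 10 of the 18 enzymes (55.6%), against 26.8% of all genes. Summed over the 18 enzymes the level was 1358 and 1897 CPM in ATRA 1 and 2 and 1875 and 1537 CPM in ethanol 1 and 2. The ATRA libraries thus differed from each other by more than the group means did. The labels do not say what the number stands for, each pair is 1 library against 1 library, and the enzymes are not independent of each other, so these counts are a description with no test.

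**Figure D3:**
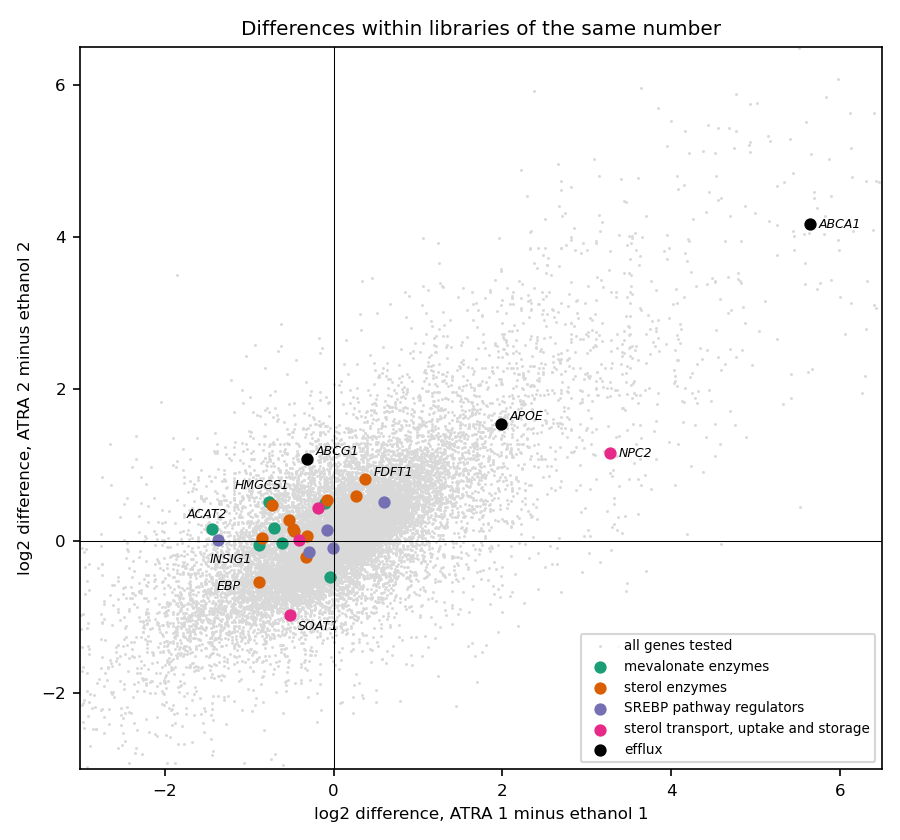
Log2 difference, ATRA minus ethanol, within libraries without a number (x) and within those numbered 2 (y), for all 18900 genes tested (grey) and the 30 members by role; genes beyond the axes are not drawn. ABCA1 is positive on both axes (5.65 and 4.17), and 16 members lie in the upper left, negative on x and positive on y.

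Which members were called differed with the library left out and with the tool. A fit without 1 library sets a lone library against a pair, so the spread comes from that pair and the lone library is assumed to vary like it; such fits called 870 to 1442 genes, against 132 with all 4 libraries. Without ATRA replicate 2 the edgeR quasi-likelihood test called ACAT2 and INSIG1 lower (adjusted p 0.0491 and 0.0377) beside ABCA1 and NPC2 higher, in a fit that called 6.96% of all genes. Without ethanol replicate 2, ABCA1, NPC2 and APOE were called higher and 0 members lower, in a fit that called 5.88% of all genes. Without ATRA replicate 1 or ethanol replicate 1, ABCA1 was the single member called, in fits that called 4.2% and 4.35% of all genes. DESeq2 called ABCA1 and NPC2 and 6.18% of all genes, edgeR on every gene of at least 1 count called the same pair and 4.88%, and limma-voom called 0 members and 0.265%.

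Did other genes of lipid metabolism move? From 7 further lists, 74 genes were in the table, 67 were tested and 0 were called by the edgeR quasi-likelihood test, while 12 had an unadjusted p under 0.05 (17.9%, against 15.9% of all genes). DESeq2 called 2 of them, LBR and TMEM97, both lower. Both ATRA libraries lay above both ethanol libraries for 13 (19.4%) and below them for 13 (19.4%), against 23.8% and 21.7% of all genes.

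The 3 genes of smallest adjusted p among them act at the endoplasmic reticulum or nuclear envelope. LBR, the lamin B receptor, which doubles as a sterol reductase, had 73.2 and 123 CPM with ATRA and 229 and 349 CPM with ethanol, at -1.56 ± 0.36 (SE; edgeR quasi-likelihood adjusted p 0.118). It shares its reductase step with TM7SF2, whose value above was 0.45. TMEM97, a sterol-responsive membrane protein that binds NPC1, had 26.3 and 45.4 CPM with ATRA and 79.8 and 101 CPM with ethanol, at -1.33 ± 0.34 (SE; edgeR quasi-likelihood adjusted p 0.135). ERLIN1, which helps degrade INSIG-bound proteins, was at -1.01 ± 0.27. In all 3 both ATRA libraries lay below both ethanol libraries, and the differences were negative within both numbers.

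Of the fatty acid synthesis genes driven by SREBP-1, 0 of 10 were called, the median was 0.06, the range was -0.41 to 0.63, and 7 of the 10 intervals excluded a doubling and a halving. The 2 with the smallest p were ME1, malic enzyme, at 0.63 ± 0.34 and ACSS2, an acetyl-CoA synthetase, at 0.32 ± 0.24. Among 8 lipoprotein receptors and adaptors 0 were called. The median was -0.02, and 5 had a negative log2 fold change, against 49.2% of all genes. Both ATRA libraries lay above both ethanol libraries for 1 of the 8 (12.5%) and below them for 3 (37.5%). The shares of all genes were 23.8% and 21.7%. LRP1, a large receptor that binds APOE-bearing particles, had 50.1 and 46.4 CPM with ATRA and 11.1 and 25.8 CPM with ethanol, at 1.38 ± 0.43 (SE; edgeR quasi-likelihood adjusted p 0.196).

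Of 11 genes of lysosomal and intracellular sterol transport tested, 10 had a positive log2 fold change, against 50.8% of all genes. Of the 11, 0 were called, and the median was 0.36. SCARB2, a lysosomal membrane protein, had 577 and 585 CPM with ATRA and 294 and 341 CPM with ethanol, at 0.87 ± 0.24 (SE; edgeR quasi-likelihood adjusted p 0.160). GRAMD1A, a sterol carrier between plasma membrane and endoplasmic reticulum, was at 0.67 ± 0.24. CAV1 and GRAMD1C had too few reads to test.

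The list of LXR receptors, other sterol transporters and lipoprotein proteins had 0 of 10 tested genes called. A positive log2 fold change was seen in 7, against 50.8% of all genes, with a median of 0.40 and a range of -0.78 to 1.91 over the 10. Both ATRA libraries lay above both ethanol libraries for 3 of the 10 (30%) and below them for 1 (10%), against 23.8% and 21.7% of all genes. By smallest p, the transporter ABCA2 was at 0.54 ± 0.23 and clusterin, CLU, at -0.78 ± 0.24. The other 8 are given in full although they were outside the naming rule. The receptors NR1H2 and NR1H3 were at -0.02 ± 0.39 and 0.25 ± 0.55. The transporters ABCA7 and ABCG4 were at 1.03 ± 0.55 and 1.91 ± 0.91, with libraries that overlapped between groups. The phospholipid transfer protein gene PLTP was at 0.28 ± 0.26, the apolipoprotein gene APOC1 at 0.53 ± 0.56, the acyltransferase gene LPCAT3 at -0.22 ± 0.32 and the phosphodiesterase gene SMPDL3A at 0.98 ± 0.48. None of these genes was tested against ABCA1 directly.

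Oxysterol and steroid enzymes had low counts: 4 of 9 had too few reads to test, and 0 of 5 were called. CYP27A1, the mitochondrial enzyme that makes an LXR-activating oxysterol, had 2.78 and 1.62 CPM with ATRA and 0.616 and 0.842 CPM with ethanol, at 1.57 ± 0.63 (SE; edgeR quasi-likelihood adjusted p 0.307), and HSD3B7 was at 1.14 ± 0.62. The oxysterol enzyme gene CH25H had 4 reads in ATRA 1 and 0 in the other libraries, and CYP46A1, the neuronal enzyme of cholesterol turnover, had 2 to 4 reads in each library. In the isoprenoid branch 0 of 14 were called and the median was -0.19, with LBR lowest and PDSS1, which builds the ubiquinone tail, at -0.88 ± 0.30.

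**Figure D4:**
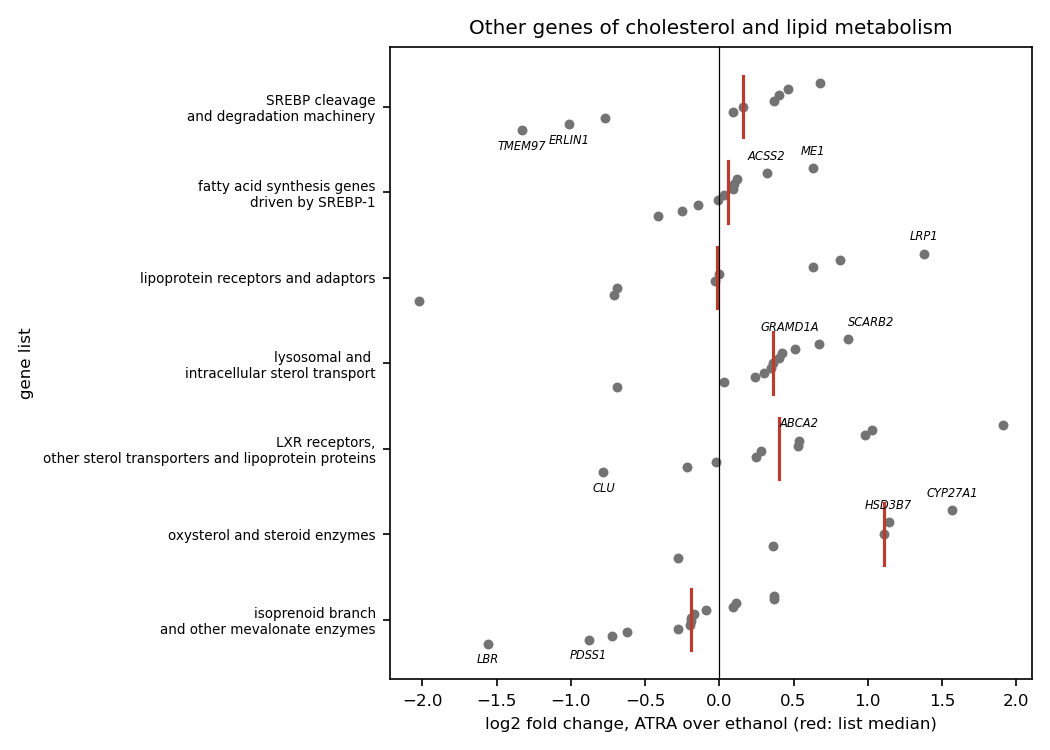
Log2 fold change, ATRA over ethanol (x), of the 67 other lipid genes tested, by list (y), with each list's median as a red line and up to 2 genes of smallest p per list named. No gene passed the threshold; LBR lies at -1.56, TMEM97 at -1.33 and LRP1 at 1.38.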

How the data were processed

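Total RNA was ribosome-depleted and made into directional libraries, per the labels' protocols. The deposited table holds raw counts per gene symbol; STAR 2.5.2b, featureCounts 1.5.1 and build hg19 are named per the submitters' processing notes, while the sources used here do not give the annotation, strand setting or handling of shared reads.

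ATRA was compared with ethanol in edgeR 4.0.16 (R 4.3.3): filterByExpr with a minimum count of 10, TMM scaling, and a robust quasi-likelihood F test with treatment alone in the model (2 residual degrees of freedom). P-values were adjusted by Benjamini-Hochberg over 18900 genes, with a threshold of 0.05. CPM use TMM-scaled library sizes; SE is the absolute log2 fold change over the square root of F, and intervals are 95%. Differences within a number use log2 CPM with a prior count of 2. DESeq2 1.42.0, limma-voom 3.58.1, other scalings, no filter, a block and leaving out each library were alternatives. The fit was tested on simulated data.

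Members and lists were chosen with earlier results of these data known. Values in every library are given for members called, the 10 of smallest p and the 5 of largest change; ABCG1, NPC1, STARD4, SQLE, SREBF1, SREBF2, HMGCS1, MSMO1, ACAT2 and the printed promoters, narrowed to 3, were added after values were seen. From other lists, genes called and the 2 of smallest p are named, apart from 1 that is not reported here. In those lists 2 genes were found under an older symbol.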

Additional observations from a re-analysis of the deposited data

How the results depend on the processing

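The call of ABCA1 held in 10 of 11 alternatives (log2 4.49 to 5.89, also the range when each library was left out, in fits where the spread comes from the remaining pair alone) and was lost with limma-voom (5.11, adjusted p 0.0932). Genes called in all were 103 higher and 29 lower. They became 1126 and 695 when all genes with 1 count or more were kept, 822 and 438 with DESeq2, 43 and 7 with limma-voom, and 547 to 838 and 231 to 604 without 1 library. Members called, 1 higher and 0 lower, became 2 higher with no further filter (4.88% of all genes called), 2 higher with DESeq2 (6.18%), 0 with limma-voom (0.265%), and 1 to 3 higher and 0 to 2 lower without 1 library (4.2% to 6.96%). Other pathway genes called, 0 in either direction, became 1 higher and 2 lower with no further filter, 2 lower with DESeq2, and 0 to 3 higher and 0 to 3 lower without 1 library. The cause of these shifts was not tested.

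Libraries share a number in their titles, and over 18900 genes the deviations of same-numbered libraries from their group means correlated at 0.632, and over the 30 members at 0.0581, but 2 pairs and no label do not establish pairing. With the number as a replicate block, 1 residual degree of freedom is left, and edgeR called 2325 genes higher and 1773 lower (21.7%), 4 members higher (ABCA1, NPC2, APOE and FDFT1) and 2 lower (EBP and SOAT1), and 10 other pathway genes higher and 9 lower.

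Of 330 member values under alternatives, 300 kept direction and side of the threshold, 12 were newly called and 1 was lost; 17 reversed, all of them values that had not been called. SREBF2, at 0.04, was 0.00 with library size alone, -0.01 with no further filter, and -0.14 to 0.18 without 1 library. The other reversals came without 1 library: HMGCS1 (-0.49 to 0.18), MVK (-0.58 to 0.02), MVD (-0.04 to 0.41), SQLE (-0.44 to 0.09), LSS (-0.45 to 0.10), CYP51A1 (-0.73 to 0.48), MSMO1 (-0.55 to 0.27), SC5D (-0.38 to 0.11), SCAP (-0.17 to 0.05), STARD4 (-0.25 to 0.48) and ABCG1 (-0.01 to 0.73). The median over the 30 members was -0.24 to 0.05 without 1 library. Of 154 values of named genes in other lists, 132 were the same and 22 were newly called.

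Low counts limit ABCA1 with ethanol (6 and 10 reads) and the oxysterol genes.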
